A study of Mus musculus with 8 samples.

Results

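A set of 10 genes of muscle wasting and autophagy was followed in the mouse left ventricle through pregnancy and birth: Fbxo32, Trim63, Mstn, Foxo1, Foxo3, Bnip3, Sqstm1, Gabarapl1, Ulk1 and Becn1. They were chosen by name, as array probe sets annotated with that 1 gene symbol, and where a gene had several the probe set with the highest mean was used. All 10 were found among the 22180 genes measured. Left ventricle RNA of C57BL/6 females, 3 to 4 months old, was hybridised to 8 arrays, 2 for each of 4 states: non-pregnant mice in diestrus (a phase of the estrous cycle), mice on day 12 of pregnancy, mice on day 19 of pregnancy, and mice 1.5 days after giving birth. The labels name no altered allele and no treatment; all mice were killed under isoflurane, and RNA came from 1 piece of each ventricle. The protocol text takes the late group at day 19 or the day before. Diestrus is the baseline that the series design names. Which animal each array came from is not in the labels. The p-values therefore cover only the variation among these arrays, and that variation may be technical. The question put to the genes was whether the programme of muscle breakdown that accompanies a shrinking heart is under way 1.5 days after birth. In a model without a replicate term, none of the 9 members that could be tested differed past the adjusted threshold between any states. By size, Fbxo32, Ulk1, Foxo3 and Foxo1 were lowest on day 19 and higher post-partum. For Foxo1 the post-partum excess was only 0.069 log2, and its second probe set did not share this order. Bnip3 was highest on days 12 and 19, and Trim63 overlapped between all states.

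Striated muscle breaks down its proteins through the proteasome, to which ubiquitin ligases send sarcomeric and other proteins, and through autophagy, which encloses cytoplasm and organelles in a membrane that fuses with the lysosome. Forkhead box O transcription factors, held out of the nucleus by insulin and growth factor signalling, switch on genes of both routes. The heart enlarges in pregnancy and returns to its size after birth.

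Promoter letters are shown for the genes with a match to one of 3 binding motifs, Trim63 and Bnip3, and for Ulk1, which had none. Each is the 250 bases before the annotated start, 5′ to 3′ on the gene's strand, from RefSeq on GRCm38.p6, with motif matches in capitals.
Trim63 (chr4:134314870-134315119, + strand): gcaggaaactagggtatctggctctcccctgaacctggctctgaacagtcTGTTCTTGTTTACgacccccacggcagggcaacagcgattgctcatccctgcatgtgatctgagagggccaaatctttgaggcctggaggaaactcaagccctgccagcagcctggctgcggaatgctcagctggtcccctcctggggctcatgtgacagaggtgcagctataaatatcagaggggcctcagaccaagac
Bnip3 (chr7:138909507-138909756, - strand): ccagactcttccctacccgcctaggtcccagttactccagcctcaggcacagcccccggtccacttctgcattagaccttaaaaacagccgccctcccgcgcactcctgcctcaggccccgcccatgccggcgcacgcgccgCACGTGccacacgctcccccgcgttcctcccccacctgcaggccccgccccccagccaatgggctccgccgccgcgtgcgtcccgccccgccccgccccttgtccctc
Ulk1 (chr5:110810082-110810331, - strand): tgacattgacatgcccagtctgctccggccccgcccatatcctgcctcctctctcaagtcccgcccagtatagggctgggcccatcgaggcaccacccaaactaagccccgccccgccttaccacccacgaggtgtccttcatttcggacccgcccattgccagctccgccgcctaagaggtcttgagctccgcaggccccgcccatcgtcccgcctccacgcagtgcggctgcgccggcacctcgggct
The motifs were GTAAACA, the core bound by forkhead box O factors, AGAACA, a half-site of the glucocorticoid receptor, and CACGTG, the E-box core of sites bound by the lysosome regulator TFEB and by other factors, searched on both strands. In the Trim63 promoter the reverse complements of the first and second motifs, TGTTTAC and TGTTCT, lie next to each other without overlap, beginning 194 and 200 bases before the start. The Bnip3 promoter holds CACGTG, beginning 108 bases before the start. Of the 8 members with an entry in the promoter table, the other 6 (Mstn, Foxo1, Foxo3, Ulk1, Gabarapl1 and Sqstm1) held none of the 3 motifs in this window; Fbxo32 and Becn1 are named only. Among all 32851 promoters of this length, 3.17% held GTAAACA, 16.1% AGAACA and 6.02% CACGTG. A match is a description of the letters and no evidence of binding.

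Values are log2 RMA intensities, the authors' background-corrected and array-equalised summary of each probe set, so a difference of 1 is a 2-fold difference. The cardiomyocyte markers Myh6, Actc1 and Tnnt2 lay between 12.34 and 12.96 on all 8 arrays, and 5 of the 12 skeletal muscle markers, the myosins Myh1, Myh2, Myh4 and Myh8 and Mylpf, stayed below the filter described below. The other 7, Tnni2, Tnnt3, Actn3, Pvalb, Atp2a1, Myog and Myod1, were tested; all 7 were higher on day 19 than in diestrus (median log2 difference 0.24) and 5 were higher post-partum than in diestrus (median 0.29). The 2 day 19 arrays differed from each other, and in different ways. Replicate 1 was high in atrial markers, whose 10 genes summed to an intensity of 14160 on that array, against 4117 to 6063 on the others, with the atrial myosin light chain Myl7 at 11.76 on it and 4.56 on replicate 2. Nppa makes up much of that sum, and other atrial markers were unequal elsewhere too: Myl7 was at 10.04 on day 12 replicate 3 and 4.69 on replicate 2, and at 8.24 on diestrus replicate 3 and 5.12 on replicate 2. The atrial list averaged 0.63 above the diestrus mean on day 12 replicate 3. Replicate 2 was high in macrophage markers (12 genes, a sum of 11750, against 4367 to 5946 elsewhere) and in interferon response genes (10 genes, 6878, against 1068 to 1515 elsewhere). Differences of the members that involve day 19 are therefore given with and without each of these arrays where they are described. Of the 12 cardiomyocyte markers, 11 were lower on day 19 than in diestrus (median log2 difference -0.12) and 10 were higher post-partum than on day 19 (median 0.14), while 11 of the 12 macrophage markers were lower post-partum than on day 19 (median -0.43). In that comparison 9 of 10 fibroblast markers (median 0.23) and 7 of 10 endothelial markers (0.19) were higher. Lower were 9 of 9 interferon genes (-1.09), 8 of 10 atrial markers (-0.55) and 5 of 5 adipocyte markers (-0.34). Several of these differences came with 1 day 19 array. Means from diestrus follow for day 19 replicates 1 and 2, then post-partum replicates 2 and 4. They were 0.10, 1.29, -0.0016 and 0.35 for macrophage markers and 0.19, 2.21, 0.062 and 0.32 for interferon genes. Fibroblast markers gave -0.013, -0.62, -0.15 and 0.16, and atrial markers 1.78, -0.39, -0.47 and -0.34. Adipocyte markers were higher on both day 19 arrays (0.71, 0.19, 0.12 and -0.029). The part of these lists in the members' values was not tested. In whole tissue, fewer cells of a type and less RNA per cell cannot be told apart.

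Tests were run on the 13872 genes whose highest group mean was 5.19 or more, 5.19 being the median value of the whole table. Of the members 9 passed and Mstn did not. In limma without a replicate term, with Benjamini-Hochberg adjustment over the 13872 genes, none of the 9 members passed 0.05 in any of the 5 comparisons, and neither did any other gene (0% called, smallest adjusted p = 0.0667, in post-partum against day 19). At an unadjusted p under 0.05, 3 of the 9 members stood out post-partum against day 19 (Fbxo32, Ulk1 and Bnip3), where 8.25% of all genes tested did, and 3 at day 19 against diestrus (the same 3), where 7.29% did. For day 12 against diestrus it was 1 member (Bnip3) against 2.31% of all genes, for day 19 against day 12 it was 2 (Fbxo32 and Foxo3) against 6.47%, and for post-partum against diestrus it was 0 of 9, against 6.62%. These sets depended on the arrays kept. Leaving out an array of diestrus, day 12 or post-partum changed some of the sets, as did leaving out a day 19 array. Without day 19 replicate 1 they were Fbxo32, Foxo3, Bnip3 and Gabarapl1 post-partum against day 19 (24.4% of all genes), Foxo3, Bnip3 and Gabarapl1 at day 19 against diestrus (26.9%) and Foxo3 and Gabarapl1 at day 19 against day 12 (27.8%). Without replicate 2 they were Fbxo32, Bnip3 and Ulk1 (7.46%), Fbxo32 and Bnip3 (4.15%) and Fbxo32 (3.31%) in the same 3 comparisons. The sets also depended on the fit. With array weights they were Fbxo32 and Bnip3 post-partum against day 19 (4.05% of all genes). They were Bnip3 at day 19 against diestrus (6.02%) and Foxo3 at day 19 against day 12 (5.72%). Fitting only the 2 groups compared gave Fbxo32 (3.07%), Fbxo32 and Bnip3 (3.92%) and Foxo3 (3.84%) in the same order. The comparisons share arrays and are not independent of each other. Over the 4 states together, the moderated F test gave an adjusted p of 0.726 for Fbxo32, Bnip3, Foxo3 and Ulk1, and of 0.751 to 0.898 for the other 5, with an unadjusted p of 0.00606 for Bnip3 and 0.0208 for Fbxo32; both are under 0.05, as were 5.81% of all genes tested. The differences below are descriptions of size and of overlap between arrays, none of which passed adjustment.

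**Figure D1:**
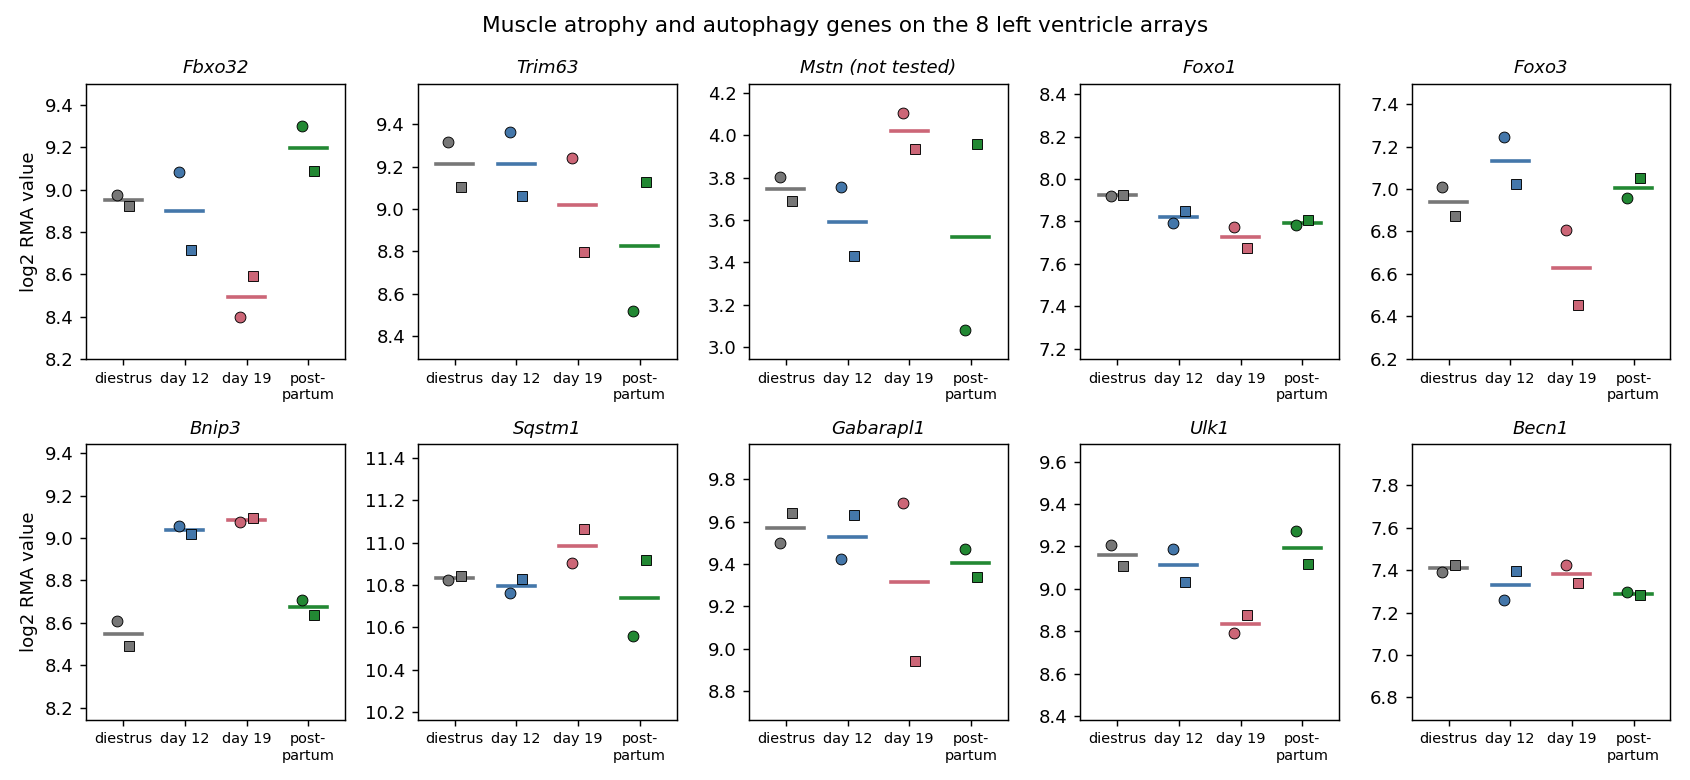
Log2 RMA value (vertical axis, each panel spanning the same 1.3 log2 units) of the 10 genes on each array (circle and square: the lower- and higher-numbered replicate of a group; bar: group mean) in diestrus, on day 12, on day 19 and post-partum. Fbxo32, Ulk1, Foxo3 and, by little, Foxo1 have their lowest 2 arrays at day 19, and Bnip3 has its highest 4 arrays on days 12 and 19.

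Fbxo32 encodes atrogin-1, the ubiquitin ligase whose induction defines muscle atrophy programmes. It stood at 8.98 and 8.92 on the diestrus arrays, at 9.08 and 8.71 on day 12, at 8.40 and 8.59 on day 19 and at 9.30 and 9.09 post-partum. The day 19 arrays were thus the lowest of the 8 and the post-partum arrays the highest. Post-partum exceeded day 19 by 0.70 ± 0.17 log2 (SE, n = 2 per group), or 1.63-fold, with a 95% interval of 0.31 to 1.09 (limma, adjusted p = 0.589). By unadjusted p (0.00343) it ranked 73rd of the 13872 genes. Against diestrus, day 19 was lower by a log2 difference of -0.45 ± 0.17 (adjusted p = 0.657), which was -0.55 without day 19 replicate 2 and -0.36 without replicate 1. The post-partum excess over day 19 was 0.80 and 0.60 in those settings. Against day 12, day 19 differed by -0.40 (adjusted p = 0.675), by -0.50 without replicate 2 and by -0.31 without replicate 1. Post-partum against diestrus, the difference was 0.25, with an interval of -0.14 to 0.64 (adjusted p = 0.752). The interval includes 0, although the arrays of these states did not overlap.

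Trim63, which encodes MuRF1, the other leading ligase of muscle atrophy and one that acts on sarcomeric proteins, had values of 9.32 and 9.10 in diestrus, 9.36 and 9.06 on day 12, 9.24 and 8.80 on day 19 and 8.52 and 9.13 post-partum. The groups overlapped in all 5 comparisons, and post-partum replicate 2 lay below the other 7 arrays. Post-partum against day 19 the difference was -0.20 ± 0.24 log2 (adjusted p = 0.790). It was 0.11 without post-partum replicate 2, 0.026 without day 19 replicate 1 and -0.42 without day 19 replicate 2. Against diestrus the post-partum difference was -0.39, with an interval of -0.95 to 0.18 (adjusted p = 0.742), -0.085 without that replicate and -0.69 without post-partum replicate 4 (adjusted p = 0.302). Whether Fbxo32 and Trim63 differ in their response was not tested.

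Mstn, the gene of myostatin, a secreted inhibitor of muscle growth of the TGF-beta family, gave low values throughout: 3.80 and 3.69 in diestrus, 3.76 and 3.43 on day 12, 4.11 and 3.93 on day 19, and 3.08 and 3.96 post-partum. Its mean lay above only 21.0% of all probe sets, and no group reached the filter, so no test was made. The post-partum arrays held the lowest value of the 8 and one near the highest.

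Both forkhead factors were measured well above the filter. Foxo3 had 7.01 and 6.87 in diestrus, 7.24 and 7.02 on day 12, 6.81 and 6.45 on day 19 and 6.96 and 7.05 post-partum, so that its day 19 arrays lay below all the others. Day 19 was below day 12 by a log2 difference of -0.51 ± 0.16 (limma, adjusted p = 0.675). That difference was -0.33 without day 19 replicate 2. It was -0.68 without replicate 1, where it passed adjustment (adjusted p = 0.0428) in a fit in which 1374 genes did and in which the lone day 19 array was taken to vary like the other groups. Post-partum was 0.38 above day 19 (adjusted p = 0.589), by 0.20 without day 19 replicate 2 and by 0.55 without replicate 1. Foxo1 had 7.92 and 7.93 in diestrus, 7.79 and 7.85 on day 12, 7.77 and 7.68 on day 19 and 7.78 and 7.81 post-partum. All 6 arrays of pregnancy and after birth lay below both diestrus arrays, by -0.10, -0.20 and -0.13 log2 at day 12, day 19 and post-partum (adjusted p = 1.00, 0.674 and 0.807). The day 19 difference was -0.25 without replicate 1 and -0.15 without replicate 2. A second, dimmer Foxo1 probe set did not separate these states in that way: its post-partum values were 4.83 and 4.70, against 4.69 and 4.70 in diestrus.

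Ulk1, the kinase that starts autophagosome formation, also had its lowest arrays on day 19. Its values were 9.21 and 9.11 in diestrus, 9.19 and 9.03 on day 12, 8.79 and 8.88 on day 19 and 9.27 and 9.12 post-partum, with both day 19 arrays below the other 6. Post-partum exceeded day 19 by 0.36 ± 0.13 log2, or 1.28-fold (adjusted p = 0.589), and day 19 stood at -0.32 ± 0.13 against diestrus (adjusted p = 0.657), at -0.37 without day 19 replicate 2 and -0.28 without replicate 1. The post-partum excess over day 19 was 0.40 without day 19 replicate 2 and 0.32 without replicate 1. Post-partum differed from diestrus by 0.036 (95% interval -0.28 to 0.35). Becn1, the scaffold of the lipid kinase complex that nucleates the autophagosome membrane, lay between 7.26 and 7.43 on all 8 arrays. Its post-partum values of 7.30 and 7.28 lay below both day 19 values, 7.43 and 7.34, and both diestrus values, 7.39 and 7.43, with differences of -0.094 and -0.12 (adjusted p = 0.804 and 0.826). The day 19 comparison gave -0.14 without day 19 replicate 2 and -0.051 without replicate 1. A probe set shared by Becn1 and Cntd1 was not used.

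Bnip3, a mitochondrial outer membrane protein that recruits autophagosomes to mitochondria and a known target of hypoxia signalling, was the one member that stood high through pregnancy. It had 8.61 and 8.49 in diestrus, 9.06 and 9.02 on day 12, 9.07 and 9.10 on day 19 and 8.71 and 8.64 post-partum. The 4 pregnancy arrays lay close together, and all of them above the other 4. Day 12 exceeded diestrus by 0.49 ± 0.12 log2 (limma, unadjusted p = 0.00440, rank 40 of 13872, adjusted p = 1.00), and day 19 exceeded diestrus by 0.54 ± 0.12, or 1.45-fold (unadjusted p = 0.00267, rank 46, adjusted p = 0.657). The day 19 difference was 0.55 without replicate 1 and 0.53 without replicate 2. Post-partum was below day 19 by a log2 difference of -0.41 ± 0.12 (adjusted p = 0.589), -0.42 without day 19 replicate 1 and -0.40 without replicate 2. Post-partum against diestrus gave 0.12, with an interval of -0.16 to 0.41.

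Sqstm1 and Gabarapl1 encode the parts that hold cargo to the autophagosome: Sqstm1 a receptor that binds ubiquitin and is itself degraded by autophagy, Gabarapl1 a ubiquitin-like protein of the Atg8 family that coats the membrane. Sqstm1 was at 10.82 and 10.84 in diestrus, 10.76 and 10.83 on day 12, 10.90 and 11.07 on day 19 and 10.56 and 10.92 post-partum. Its day 19 arrays lay above those of diestrus and day 12, by 0.15 and 0.19 log2 (adjusted p = 0.773 and 0.709), and the higher of them was replicate 2. The difference from diestrus was 0.073 without replicate 2 and 0.23 without replicate 1, and that from day 12 was 0.11 and 0.27 in those settings. Gabarapl1 was at 9.50 and 9.64 in diestrus, 9.42 and 9.63 on day 12, 9.69 and 8.94 on day 19 and 9.47 and 9.34 post-partum. Its day 19 arrays held both the highest and the lowest of the 8 values, and the difference from diestrus of -0.25 became 0.12 without replicate 2 and -0.63 without replicate 1.

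**Figure D2:**
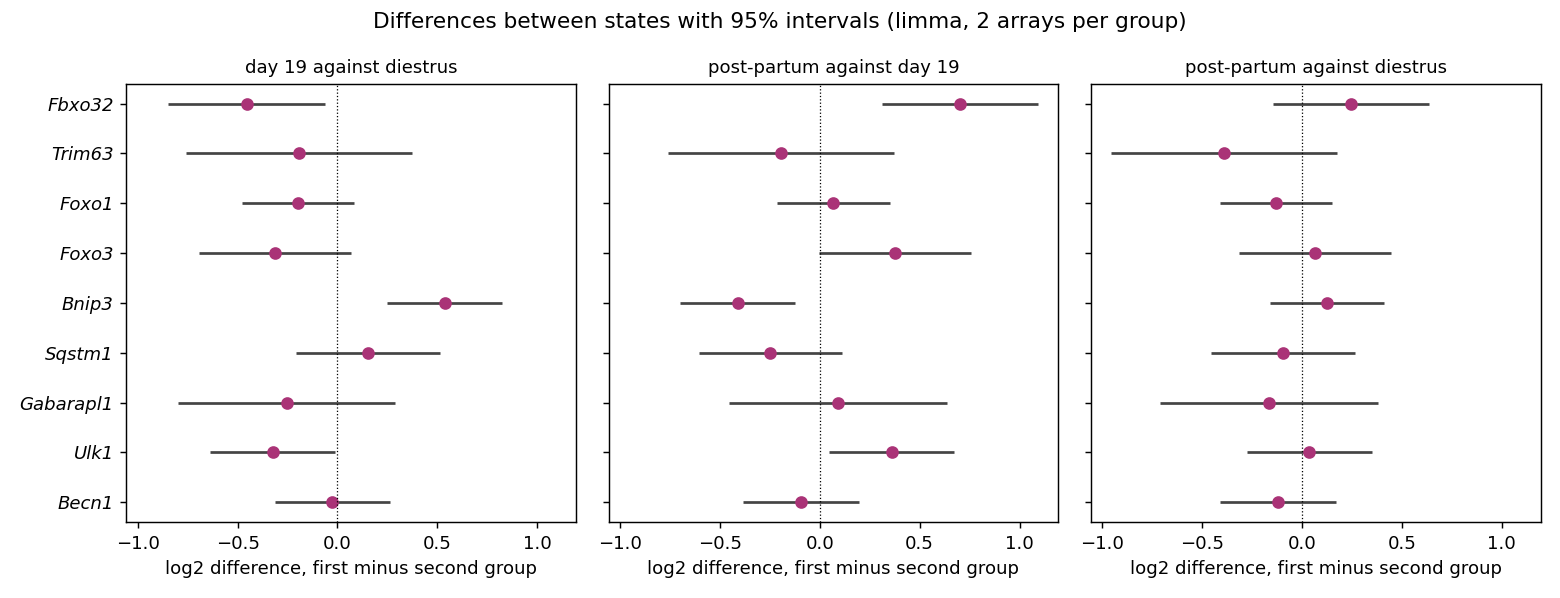
Log2 difference (horizontal axis) with its 95% interval (line, limma, 2 arrays per group) for the 9 genes tested, for day 19 against diestrus, post-partum against day 19 and post-partum against diestrus. After birth Fbxo32 (0.70) and Ulk1 (0.36) lay above day 19 and Bnip3 (-0.41) below it with intervals clear of 0, while all 9 intervals of post-partum against diestrus include 0. The intervals are per gene and not adjusted for the number of genes tested, and none of the differences passed adjustment.

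Post-partum against day 19, the arrays of 4 of the 9 members tested lay wholly higher (Fbxo32, Foxo1, Foxo3 and Ulk1), where 19% of all genes tested did so, and 2 wholly lower (Bnip3 and Becn1), where 14.3% did. Day 19 against diestrus had 2 wholly higher (Bnip3 and Sqstm1; 16.4% of all genes) and 4 wholly lower (Fbxo32, Foxo1, Foxo3 and Ulk1; 20.4%), and day 19 against day 12 had the same 2 and 4 (16.3% and 23.2%). These counts share the day 19 arrays, so they are not separate observations. Post-partum against diestrus had 2 wholly higher (Fbxo32 and Bnip3; 21.1%) and 3 wholly lower (Foxo1, Gabarapl1 and Becn1; 21.7%), and day 12 against diestrus 2 (Foxo3 and Bnip3; 21.7%) and 1 (Foxo1; 15.6%). The median difference of the 9 members was 0.069 log2 post-partum against day 19 (all genes tested 0.013), -0.20 at day 19 against diestrus (-0.029) and -0.093 post-partum against diestrus (-0.0037). The first 2 medians depended on the day 19 arrays. Without day 19 replicate 2 they were -0.14 (all genes -0.026) and 0.018 (0.018), both the value of Becn1. Without replicate 1 they were 0.12 (Foxo1, all genes 0.059) and -0.28 (Ulk1, all genes -0.070).

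The rest of the pathways was read from 7 lists of 145 further genes, of which 135 were measured and 133 tested. None passed adjustment in any comparison. At an unadjusted p under 0.05, 6 of the 133 (4.51%) stood out post-partum against day 19, against 8.25% of all genes, and 8 (6.02%) post-partum against diestrus, against 6.62%. At day 19 against diestrus it was 4 (3.01%, against 7.29%) and at day 12 against diestrus 5 (3.76%, against 2.31%). The genes named below against day 19 also depended on its arrays. Without day 19 replicate 1 and without replicate 2 the post-partum difference from day 19 was -1.20 and -0.12 for Ctsz, 0.56 and 0.14 for Fbxl22, 0.53 and 0.11 for Klf15, 0.60 and 0.27 for Bmp1, 0.60 and 0.23 for Wipi1, 0.63 and 0.35 for Map1lc3a and -0.45 and -0.28 for Lamp2. It stayed at -0.82 and -0.79 for Pdk4, at -0.32 and -0.26 for Calcoco1 and at 0.28 and 0.23 for Wdfy3, and was 0.35 and 0.22 for Smad3, -0.26 and -0.37 for Atg4a, -0.28 and -0.66 for Fbxo30 and -0.47 and -0.48 for Prkaa1. Pathway shares after birth were at or below that of all genes. List medians stayed between -0.080 and 0.081 log2 post-partum against day 19 (all genes 0.013). Post-partum against diestrus they stayed between -0.099 and 0.024 (all genes -0.0037). The counts of higher and lower genes given below for each list have no share of all genes beside them. Those against day 19 used the mean of its 2 arrays. Replicate 2 of day 19 averaged below replicate 1 in every list except the lysosome.

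Among the other atrophy ligases, 12 of 16 were higher and 4 lower post-partum than on day 19, and 6 were higher and 10 lower than in diestrus. Their mean from diestrus was -0.0079 and -0.19 log2 on day 19 replicates 1 and 2. Post-partum it was -0.089 and -0.049 on replicates 2 and 4, both below day 19 replicate 1. Trim54, another member of the MuRF family, had 8.98 and 8.78 post-partum, against 8.51 and 8.53 in diestrus (0.36 ± 0.14 log2, adjusted p = 0.722), but 8.78 and 8.81 on day 19. Fbxo30, a ligase known to be required for denervation atrophy in mouse muscle, had 6.72 and 7.34 post-partum, against 7.82 and 7.56 in diestrus (-0.66, adjusted p = 0.722). Fbxl22, a cardiac F-box protein, had 7.67 and 7.31 post-partum, against 7.35 and 6.93 on day 19 (0.35, adjusted p = 0.598), with the groups overlapping.

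Of the other forkhead factors and their known targets, 11 of 19 were higher post-partum than on day 19 and 8 of 19 higher than in diestrus. Pdk4, a kinase that restrains pyruvate dehydrogenase, was, like Bnip3, highest on the 4 pregnancy arrays, with 11.51 and 11.38 on day 12, 11.30 and 11.33 on day 19 and 10.23 and 10.80 post-partum, against 10.65 and 10.44 in diestrus; post-partum was -0.80 ± 0.20 log2 from day 19 (adjusted p = 0.589). Klf15, a cardiac repressor of growth, had 7.37 and 7.10 post-partum, against 7.12 and 6.71 on day 19 (0.32, adjusted p = 0.598). Ccng2, a cyclin that opposes the cell cycle, had 6.89 and 7.06 post-partum, against 7.36 and 7.42 in diestrus (-0.41, adjusted p = 0.722). Cdkn1b, a cyclin-dependent kinase inhibitor, had 6.43 and 7.63 post-partum, against 8.08 and 7.69 in diestrus, with replicate 2 the lowest of the 8 arrays.

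In the myostatin pathway 10 of 22 were higher post-partum than on day 19 and 10 of 22 higher than in diestrus. Fstl3, a secreted antagonist of myostatin and activins, was above diestrus in each later state: 7.01 and 7.15 on day 12, 7.47 and 7.20 on day 19 and 7.27 and 7.19 post-partum, against 6.63 and 6.76 in diestrus. The post-partum difference was 0.54 ± 0.15 log2 (adjusted p = 0.722), and that of day 19 was 0.64 (adjusted p = 0.657). Acvr2a, an activin receptor, had 6.94 and 7.08 post-partum, against 7.27 and 7.36 in diestrus (-0.31, adjusted p = 0.722). Bmp1, a protease that releases latent myostatin, had 8.30 and 8.32 post-partum, against 8.04 and 7.71 on day 19 (0.43, adjusted p = 0.589). Smad3, which carries the signal to the nucleus, had 7.73 and 7.42 post-partum, against 7.35 and 7.23 on day 19 (0.28, adjusted p = 0.598).

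**Figure D3:**
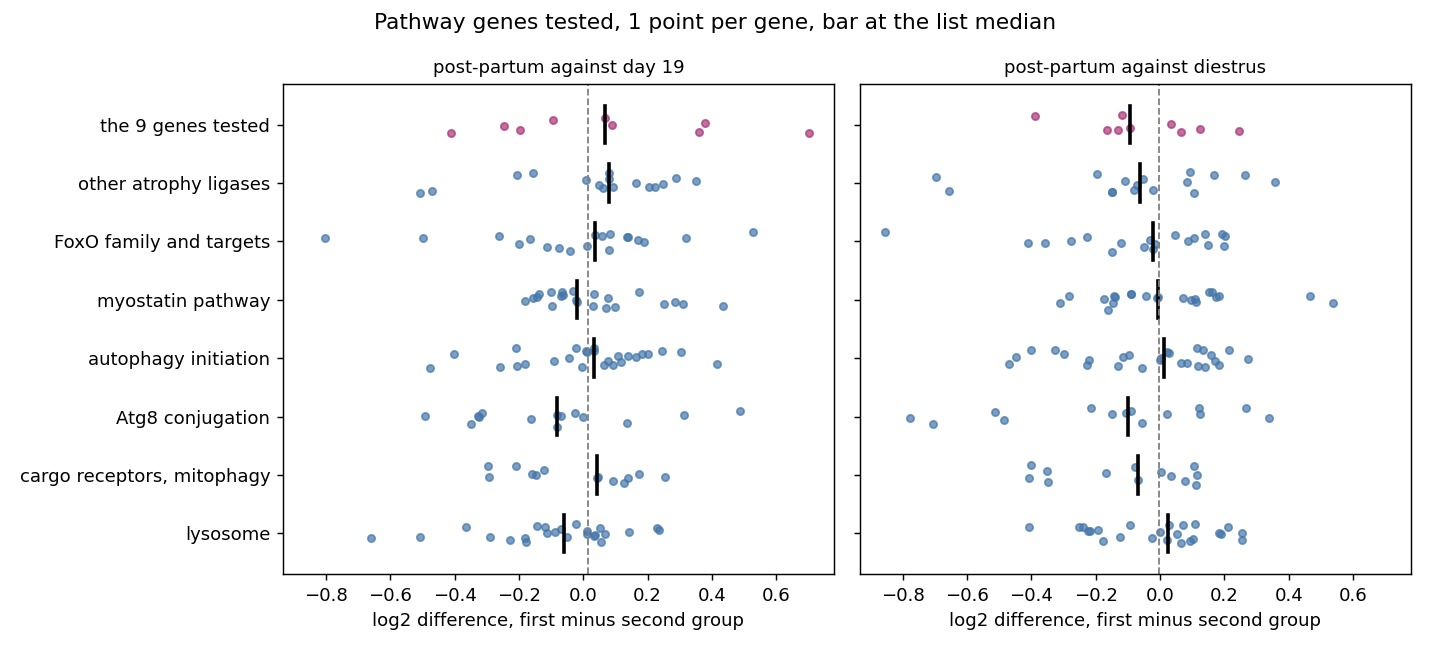
Log2 difference (horizontal axis) of each gene tested, 1 point per gene, in the 9 members and 7 pathway lists, for post-partum against day 19 and post-partum against diestrus (black bar: list median; dashed line: median of all 13872 genes tested; vertical jitter is for display). The medians of the 7 lists lie between -0.099 and 0.081 in both panels, and Fbxo32 at 0.70 is the highest point post-partum against day 19.

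For autophagy initiation and nucleation 16 of 26 were higher post-partum than on day 19 and 14 of 26 higher than in diestrus. The list mean from diestrus was 0.0037 and -0.11 log2 on day 19 replicates 1 and 2. Post-partum it was -0.086 and 0.0038 on replicates 2 and 4. Wipi1, a phosphoinositide-binding protein of the forming autophagosome, had 8.89 and 8.62 post-partum, against 8.52 and 8.16 on day 19 (0.41 ± 0.17 log2, adjusted p = 0.589). Prkaa1, a catalytic subunit of the energy sensor AMPK that phosphorylates Ulk1, had 7.83 and 8.56 post-partum, against 8.68 and 8.67 on day 19 and 8.68 and 8.65 in diestrus, and the other catalytic subunit gene, Prkaa2, 10.01 and 10.66 post-partum, against 10.87 and 10.70 in diestrus. In both the low value was that of post-partum replicate 2.

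Of the Atg8 conjugation genes, 3 of 14 were higher post-partum than on day 19 and 5 of 14 higher than in diestrus. Map1lc3a, an Atg8 family member, had 10.48 and 9.98 post-partum, against 9.88 and 9.60 on day 19 (0.49 ± 0.20 log2, adjusted p = 0.589). Atg4a, a protease that processes Atg8 proteins, had 7.79 and 7.79 post-partum, against 8.16 and 8.05 on day 19 (-0.31, adjusted p = 0.589). The conjugation enzyme gene Atg10 had 8.74 and 9.48 post-partum, against 9.85 and 9.93 in diestrus (-0.78 ± 0.25, adjusted p = 0.722), and Atg12, whose product it attaches to Atg5, had 7.46 and 7.93 post-partum, against 8.09 and 8.33 in diestrus (-0.51, adjusted p = 0.722). In both, as in Fbxo30, Prkaa1 and Prkaa2, the lower value was that of post-partum replicate 2, and replicate 4 lay closer to diestrus.

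Cargo receptors and mitophagy genes were split, with 7 of 13 higher post-partum than on day 19 and 6 of 13 higher than in diestrus. Calcoco1, a receptor for autophagy of the endoplasmic reticulum, had 9.67 and 9.75 post-partum, against 9.97 and 10.03 on day 19 and 10.14 and 9.98 in diestrus (-0.35 ± 0.13 log2 against diestrus, adjusted p = 0.722). Pink1, the kinase that marks damaged mitochondria, had 10.42 and 10.58 post-partum, against 10.86 and 10.84 in diestrus (-0.35, adjusted p = 0.722), and Wdfy3, a scaffold for aggregate clearance, 8.53 and 8.48 post-partum, against 8.28 and 8.22 on day 19 (0.25, adjusted p = 0.589).

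Lysosomal genes were higher post-partum than on day 19 in 10 of 24 and than in diestrus in 14 of 24. Lamp2, a lysosomal membrane protein needed for autophagosome clearance in the heart, had 9.70 and 9.79 post-partum, against 10.02 and 10.20 on day 19 (-0.36 ± 0.13 log2, adjusted p = 0.589) and 9.96 and 10.03 in diestrus (-0.25, adjusted p = 0.722). The transcription factor Mitf, related to TFEB, had 8.68 and 8.70 post-partum, against 8.97 and 8.86 in diestrus (-0.22, adjusted p = 0.732). Ctsz, a cathepsin, had 9.26 and 9.59 post-partum, against 9.55 and 10.62 on day 19 (-0.66, adjusted p = 0.589), the highest value being that of the day 19 array with high macrophage markers.

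The genes most like Fbxo32, Trim63 and Mstn were taken by Pearson's r over the 8 arrays among the genes tested, as a description. For Fbxo32 they were Rpap1 (r = 0.977), Zfhx3 (0.968) and Wnk1 (0.962), and 21 genes exceeded 0.9. For Trim63 they were Coq8a (0.988), Ddx23 (0.988) and Echdc3 (0.987), with 253 genes above 0.9, and for Mstn they were Ciapin1 (0.961), Snrnp40 (0.953) and Banf1 (0.953), with 18. The genes like Trim63 and Mstn shared their lowest value on post-partum replicate 2, for example Coq8a at 10.47 and Ciapin1 at 9.11, against 10.80 and 9.83 on post-partum replicate 4.

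**Figure D4:**
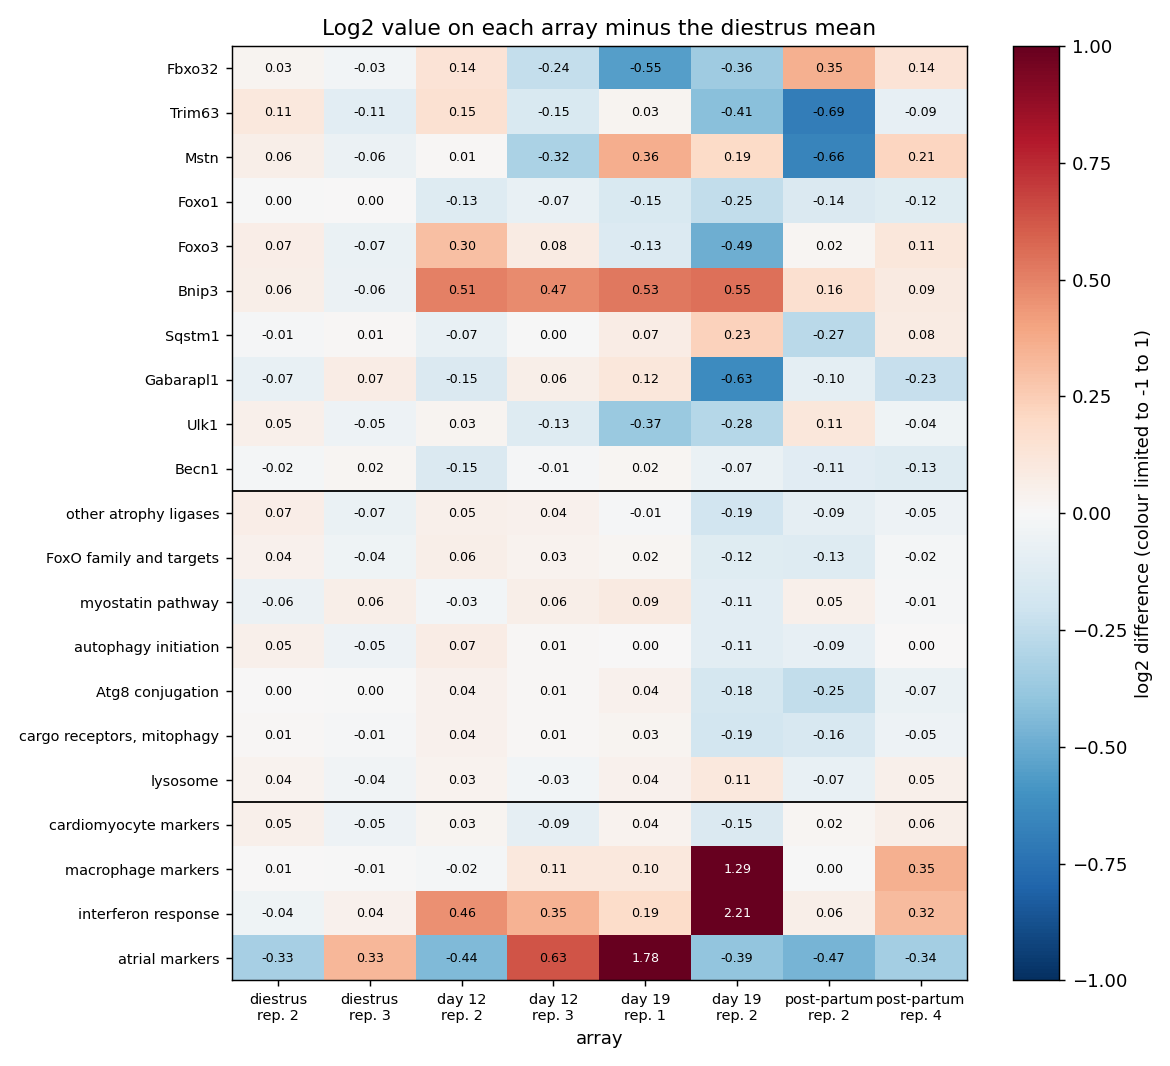
Difference of each array's log2 value from the diestrus mean (colour and printed number) for the 10 genes, for the mean of the tested genes of 7 pathway lists, and for 4 marker lists, with the 8 arrays in columns. Bnip3 is above the diestrus mean on the 4 pregnancy arrays, by 0.55 and 0.53 on those of day 19 (replicates 2 and 1), Fbxo32 is at -0.55 and -0.36 on the 2 day 19 arrays, and macrophage (1.29) and interferon (2.21) lists stand out on day 19 replicate 2 and atrial markers (1.78) on replicate 1.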

How the data were processed

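Left ventricle RNA of 8 samples was measured on 1-colour expression arrays, 2 for each of 4 states. The deposited values are on the log2 scale, 1 for each probe set. Per the submitters' processing notes, Affymetrix Expression Console and RMA were used; version and settings: not given in the sources used here. RMA equalises the arrays, so a change in total RNA cannot be seen.

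From these values, genes were named through the platform annotation, 23521 of 34365 probe sets having 1 symbol. All 8 arrays entered a group-means model in limma 3.58.1 (R 4.3.3), moderated with eBayes (4 residual and 3.68 prior degrees of freedom). It was first run on simulated data with larger differences than those of the members and equal spread on all arrays. That run does not show what could be detected here. Tests were two-sided, adjusted by Benjamini-Hochberg over the 13872 genes tested; the number of arrays limits the precision (median SE 0.17). The members and lists were chosen with earlier results of these data known. Besides the 10 members, the text names the 2 genes of each list with the smallest p in both post-partum comparisons and, for 3 members, the 3 most alike genes. Alternatives covered variance model, array weights, filters, groups fitted, centring, probe sets, a replicate block on 4 arrays and, added after seeing the data, on all 8, and each array left out.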

Additional observations from a re-analysis of the deposited data

How the results depend on the processing

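Without a replicate block, the members passing adjustment numbered 0 in every alternative run, except that leaving out arrays gave 0 to 1 at day 19 against day 12 (Foxo3, without day 19 replicate 1). Whether replicate numbers pair the samples is not in the labels; the deviations of diestrus and day 12, which share numbers 2 and 3, correlated at 0.22 over genes. With the replicate block on those 4 arrays 0 members passed and Bnip3 was at 0.49 (limma, adjusted p = 0.263), while 18 genes passed, against 0 without it.

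A replicate block over all 8 arrays was added after seeing the data and did change calls. It passed 3 members at day 19 against diestrus (Trim63 -0.54, adjusted p = 0.0454; Foxo3 -0.58, 0.0379; Gabarapl1 -0.54, 0.0457), 1 post-partum against diestrus (Trim63 -0.82, 0.0355), 2 at day 19 against day 12 (Trim63 -0.54, 0.0434; Foxo3 -0.77, 0.0160), 1 post-partum against day 19 (Fbxo32 0.71, 0.0370) and 0 at day 12 against diestrus; Foxo3 post-partum against diestrus turned to -0.072. Over all genes 2465, 599, 2635, 2442 and 18 passed in these 5 comparisons. This fit has 1 residual degree of freedom, from diestrus and day 12 alone. Day 19 replicate 1 and post-partum replicate 4 have numbers of their own and add nothing to it, so day 19 and post-partum rest on replicate 2 of each, the arrays with high macrophage and interferon genes and with the lowest Trim63.

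Over the 729 recomputed differences of the 9 members tested, 695 kept direction and side of the threshold, 8 passed newly and 26 changed sign. Many of the 729 could not change sign. The variance model, array weights, filters and groups fitted left the difference itself unchanged, as did leaving out an array of a group not compared. The 695 include these, so they do not measure how stable the directions were. Sign changes came only from centring, probe sets, arrays left out of a compared group and the block on all 8 arrays. Leaving out day 19 replicate 1 gave 1311 genes past adjustment for day 19 against diestrus, 1374 for day 19 against day 12 and 929 for post-partum against day 19, against 0 in each with all arrays; every other alternative without a block gave 0 to 4. Fbxo32, Foxo1, Foxo3, Bnip3, Sqstm1 and Ulk1 kept their direction in post-partum against day 19 and in day 19 against diestrus in every alternative run. Trim63, Gabarapl1 and Becn1 did not. Many of these runs could not change a sign, as said above.

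Counts of members whose arrays did not overlap depended on the arrays kept, since a lone array overlaps less. With each array left out, day 12 against diestrus had 2 to 4 members higher and 1 to 4 lower (21.6% to 40.1% and 15.6% to 31.9% of all genes). Day 19 against diestrus had 2 to 4 and 4 to 7 (16.4% to 36.6% and 20.2% to 49.4%). Post-partum against diestrus had 2 to 4 and 3 to 5 (21.1% to 39% and 21.4% to 40.1%). Day 19 against day 12 had 2 to 4 and 4 to 6 (16.3% to 34.2% and 23% to 50.9%). Post-partum against day 19 had 4 to 5 and 2 to 4 (18.9% to 44.7% and 14.3% to 37%). With the mean of all probe sets of a gene, 3 were lower at day 19 against diestrus (20.5%) and 3 against day 12 (23%). In that setting 3 were higher post-partum against day 19 (19.4%). With median-centred arrays the counts were 1 higher and 3 lower at day 12 against diestrus (19.6% and 17%). They were 1 higher at day 19 against day 12 (11.5%) and 1 higher post-partum against diestrus (16%). Post-partum against day 19 then had 3 higher and 1 lower (19.5% and 11.3%).

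Sign changes with centring were those of Becn1 (-0.00476) and Bnip3 (-0.014) at day 19 against day 12, Trim63 at day 12 (-0.00787) and Ulk1 post-partum (-0.00526) against diestrus; the mean of both Foxo1 probe sets gave 0.055 at day 19 against day 12. Leaving out arrays, differences at day 12 against diestrus ranged from -0.24 to 0.14 for Fbxo32, -0.15 to 0.15 for Trim63, -0.15 to 0.062 for Gabarapl1 and -0.13 to 0.031 for Ulk1. At day 19 against diestrus they ranged from -0.41 to 0.028 for Trim63, -0.63 to 0.12 for Gabarapl1 and -0.069 to 0.018 for Becn1. Post-partum against diestrus, Foxo3 ranged from -0.0035 to 0.13, Sqstm1 from -0.27 to 0.085 and Ulk1 from -0.043 to 0.11. At day 19 against day 12 the ranges were -0.42 to 0.028 for Trim63, -0.59 to 0.16 for Gabarapl1 and -0.012 to 0.12 for Becn1, and post-partum against day 19 they were -0.50 to 0.11 for Trim63 and -0.28 to 0.46 for Gabarapl1. The cause of these changes was not tested. The number of arrays, 2 per group, limits what could be detected.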

Other observations

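Further genes of the lists with an unadjusted p under 0.05 against diestrus were chosen for mention after their values were seen; none passed adjustment. Txnip, which restrains glucose uptake, had 11.40 and 11.18 on day 12, against 10.82 and 10.85 in diestrus. Bcl2l11, a death-promoting relative of Bcl2, had 7.36 and 7.25 on day 12, against 6.86 and 6.92 in diestrus, but 6.75 and 6.65 on day 19. Inhbb, an activin subunit gene and the only one of these lower on day 12, had 5.39 and 5.40 on day 12, against 5.93 and 5.58 in diestrus. Eif4ebp1, a brake on protein synthesis, had 10.09 and 10.50 on day 19, against 9.90 and 9.89 in diestrus. Atg4c, which processes Atg8 proteins, had an unadjusted p under 0.05 post-partum instead, with 5.60 and 6.46, against 6.64 and 6.84 in diestrus (limma, adjusted p = 0.722).

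The Atg8 conjugation list averaged -0.25 and -0.069 log2 from the diestrus mean on post-partum replicates 2 and 4, and 0.043 and -0.18 on day 19 replicates 1 and 2. Cardiomyocyte markers averaged 0.018 and 0.061 on the post-partum arrays and 0.037 and -0.15 on day 19 replicates 1 and 2. The list includes Nppa, also an atrial marker, which was at 12.66 on day 19 replicate 1, against 11.92 and 11.03 in diestrus. It raised the mean of that array. By group mean the other 11 markers were lower on day 19 than in diestrus.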
